A study of Schmidtea mediterranea with 18 samples.

Results

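The transcripts described here are 52 of the 41745 in the deposited table, chosen by the rise of their relative abundance in *gfp (RNAi)* control planarians, from 1 week to 3 and 4 weeks. A transcript was taken when its mean over the 18 libraries was 10 to below 1000 TPM, when all 6 control libraries of 3 and 4 weeks lay above all 3 of 1 week, and when the control mean on the log2(TPM + 1) scale was at least 0.25 higher at 4 weeks than at 1 week. TPM is a relative abundance, with the reads estimated for a transcript divided by its length and every library brought to an equal total. Transcripts whose *hippo (RNAi)* mean differed from the control by 0.58 or more on that scale at 4 weeks were left out. The 20 assembly numbers in the study's list of cell cycle genes, a selection from its changed genes, were left out too. The control values and the difference at 4 weeks therefore chose the transcripts and are given below as a description, with no test. The choice did not use the *hippo (RNAi)* libraries of 1 and 3 weeks beyond their part in the mean over the 18 libraries. The limit at 4 weeks can still bear on how the 52 behaved at 3 weeks in *hippo (RNAi)* animals. Counts at 3 weeks are therefore also given without that limit.

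All animals were whole *Schmidtea mediterranea* of the asexual BCN-10 clonal line, fed with liver and then starved for at least 1 week before the first injection. They received double-stranded RNA for *hippo*, the core kinase of the Hippo pathway, or for *gfp*, a sequence that planarians do not have. Injections were given on 3 consecutive days in each week, over 3 weeks, and the study states that starvation continued throughout. Time without food and rounds of injection thus both differ between 1 week and the later times, and cannot be told apart. RNA was taken after 1, 3 or 4 weeks, with 3 libraries for each treatment and time, each a pool of 5 animals. The label "whole animal" could not be checked against cell type markers, and the depletion of *hippo* could not be checked either, because the sources used here do not pair the table's identifiers with gene names outside that list. For the same reason, functions are not given and no sequences are shown for these transcripts.

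Planarians that are not fed survive for months and shrink, a process called degrowth, in which the body loses cells while keeping its proportions. Reserves are used up, cell death and autophagy supply material, and neoblasts, the adult stem cells, go on dividing to replace lost cells. In RNA of whole animals, more cells of a type and more RNA per cell cannot be told apart.

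Over 10531 transcripts of that abundance, 388 had all 6 later control libraries above the 3 of 1 week, which is 3.68%, and 60 of these also met the rise of 0.25. None of the 60 belonged to that list of selected cell cycle genes. The limit on the difference at 4 weeks removed 8, with *hippo (RNAi)* above the control in 1 and below it in 7. The rise was modest in all 52, with 44 between 0.25 and 0.5 and 8 between 0.5 and 1. The opposite course was more frequent in the controls, since 871 transcripts had all 6 later libraries below those of 1 week, and 85 met the same rule turned round.

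On the log2(TPM + 1) scale, the median of the 52 transcripts in controls was 0.30 higher at 3 weeks and 0.32 higher at 4 weeks than at 1 week. The rule required the controls of 3 weeks to lie above those of 1 week, so it fixed a difference at 3 weeks and nothing is read about timing. The median difference between 4 and 3 weeks was 0.05. At the edges of the rule, the smallest rise taken was 0.2508 and the largest left outside was 0.2497. The mean just inside the lower limit was 10.3 TPM and the one just outside was 9.75 TPM. At the upper limit the nearest transcript inside had 547 TPM and the nearest outside 1309 TPM, 1 of 4 transcripts above the limit that met every other criterion. For the difference between *hippo (RNAi)* and control at 4 weeks, the values just inside were 0.56 and -0.52, and those just outside were 0.64 and -0.64.

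In *hippo (RNAi)* animals the course of the 52 transcripts was mixed. Their median difference between 3 weeks and 1 week was 0.08 on the log2(TPM + 1) scale, and single transcripts ranged from -0.33 to 1.20. Over all transcripts of 10 to below 1000 TPM the median was 0.01. The difference was above 0 in 32 of the 52 (61.5%), against 52.2% of all in that range. In 8 of the 52 the difference in *hippo (RNAi)* was as large as in the controls, which had been selected on theirs.

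**Figure D1:**
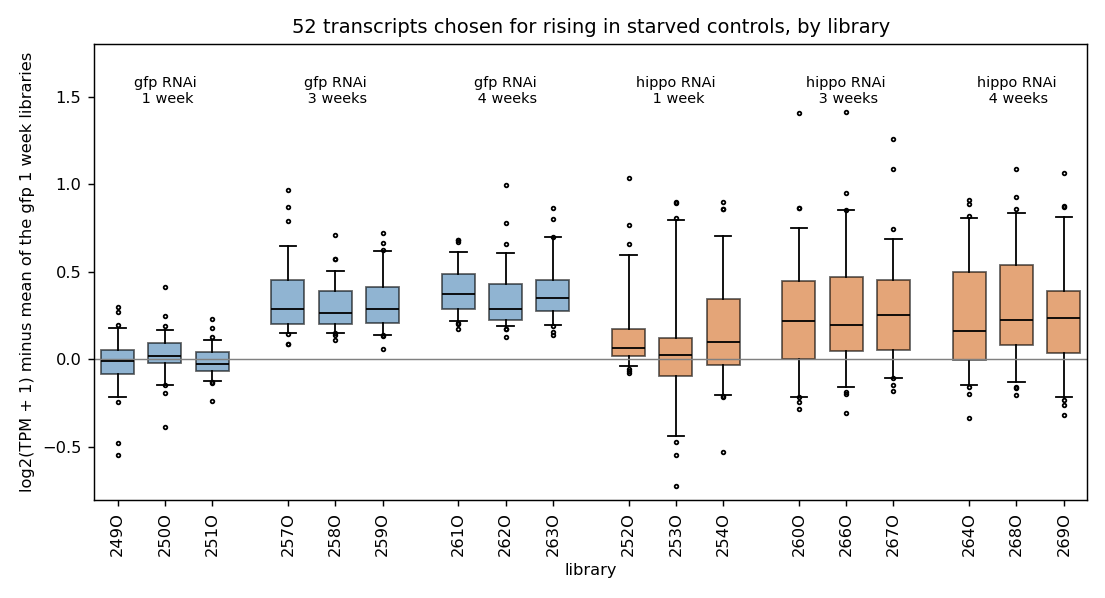
Each box shows 52 transcripts in 1 library, as log2(TPM + 1) minus the mean of the 3 control libraries of 1 week (line, median; box, quartiles; whiskers, 5th to 95th percentile; dots, transcripts beyond them). The medians of the later control libraries, which the choice of the transcripts placed above 0, lie between 0.26 and 0.38, and those of the later *hippo (RNAi)* libraries lie between 0.16 and 0.26 with wider boxes.

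By library, the median shift of the 52 from the control mean of 1 week was 0.26 to 0.29 in controls of 3 weeks and 0.29 to 0.38 in controls of 4 weeks. The *hippo (RNAi)* libraries of 1 week had medians of 0.03 to 0.10. Those of 3 weeks were at 0.22 in 260O, 0.19 in 266O and 0.26 in 267O, and those of 4 weeks at 0.16 in 264O, 0.22 in 268O and 0.23 in 269O. The later *hippo (RNAi)* libraries thus lay between the *hippo (RNAi)* libraries of 1 week and the controls of 4 weeks. The count of the 52 that exceeded all 3 *hippo (RNAi)* libraries of 1 week was 19 in 260O, 22 in 266O, 26 in 267O, 18 in 264O, 24 in 268O and 26 in 269O. Across the range of 10 to below 1000 TPM, between 29.2% and 43.1% of transcripts did so in these 6 libraries.

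The difference between 3 weeks and 1 week was tested in the 9 *hippo (RNAi)* libraries alone with limma across the 28735 transcripts that averaged 1 TPM or more, and all 52 are among them by the rule. Of the 52, 7 rose, 1 fell and 44 did not pass an adjusted p of 0.05. The background of this comparison was 3.68% called higher and 2.05% called lower over all tested transcripts, and 8.34% and 4.46% over those of 10 to below 1000 TPM. The 7 that rose are 13.5% of the 52. By separation of libraries, the 3 of 3 weeks lay above the 3 of 1 week in 13 of the 52 (25.0%), against 20.9% of the range, and below them in 3 (5.77%), against 15.0%. All 6 later *hippo (RNAi)* libraries lay above the 3 of 1 week in 11 (21.2%), against 17.3%. At an unadjusted limma p below 0.05, 19 of the 52 were higher and 3 lower, against 19.2% and 13.3% of the range. The shares that were higher are thus near the background by the separation of libraries and above it by the unadjusted p. Whether they differ from the background was not tested. For the 60 transcripts with none left out for the difference at 4 weeks, 8 rose (13.3%) and 3 fell (5%). Their difference was above 0 in 35 (58.3%), and the 3 libraries of 3 weeks lay below the 3 of 1 week in 6 (10%). The limit at 4 weeks thus removed some of the falls at 3 weeks.

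Libraries 266O and 267O of 3 weeks and 268O and 269O of 4 weeks carry numbers apart from those of the controls. The fit without these 4 has 1 *hippo (RNAi)* library left at each of 3 and 4 weeks, which is assumed to vary like the 3 of 1 week, and with that limma called none of the 52 and none of the 28735 transcripts higher, so its calls say nothing about the 52. At an unadjusted p below 0.05, 7 of the 52 were higher and 4 lower there, against 10.2% and 8.07% of the range. The median difference of the 52 was 0.03 without these libraries, and 44 of the 52 kept the sign they had with all libraries. All libraries of 1 week are numbered 249 to 254 and the later ones 257 to 269, so week and range of library numbers cannot be told apart in either treatment. The choice of the transcripts rested on single control libraries of 1 week. Without 249O the rule took 90 transcripts, of which 12 rose and 0 fell in *hippo (RNAi)* at 3 weeks. Without 250O it took 137, of which 5 rose and 7 fell. Without 251O it took 76, of which 5 rose and 1 fell. Over the range, with all libraries, 8.34% were called higher and 4.46% lower. The share that rose was thus above that of the range without 249O and below it without 250O or 251O. The median difference in *hippo (RNAi)* was then 0.06 without 249O and -0.025 without 250O, and it was -0.0019 for the 76 transcripts taken without 251O.

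Among the 52, the most abundant transcripts were all higher at 3 weeks than at 1 week in *hippo (RNAi)*. The scarce ones were not. Of the 10 with a mean of 100 TPM or more, all 10 were higher, with a median difference of 0.25 and a range of 0.04 to 0.89, and 4 rose by the limma test. Over all 1168 transcripts of that abundance, 46.6% were higher, the median was -0.01 and 14.5% were called higher. A pair of these 10 belongs to 1 assembly number, so they are not independent. Of the 14 between 30 and 100 TPM, 8 were higher, 3 rose, 1 fell and the median was 0.07, while of all transcripts of that abundance 54.6% were higher, 11.9% were called higher and 5.96% lower. Of the 28 between 10 and 30 TPM, 14 were higher, the median was 0.00 and none was called, with 6 higher and 1 lower at an unadjusted p below 0.05. Of all transcripts of that abundance, 52.0% were higher and 5.43% were called higher, and at an unadjusted p below 0.05 the shares were 15.1% higher and 10.1% lower. The difference between the groups of abundance was not tested. Outside the limits of the rule, abundant transcripts that rose in controls were mixed in *hippo (RNAi)* at 3 weeks against 1 week. Those of 203 and 112 TPM, left out for their difference at 4 weeks, had log2 differences of -0.62 and -0.81. Those of 309 and 128 TPM, left out likewise, had 0.59 and 0.13. The 4 above 1000 TPM that met every other criterion had 0.88, 0.30, -0.0048 and -0.12.

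**Figure D2:**
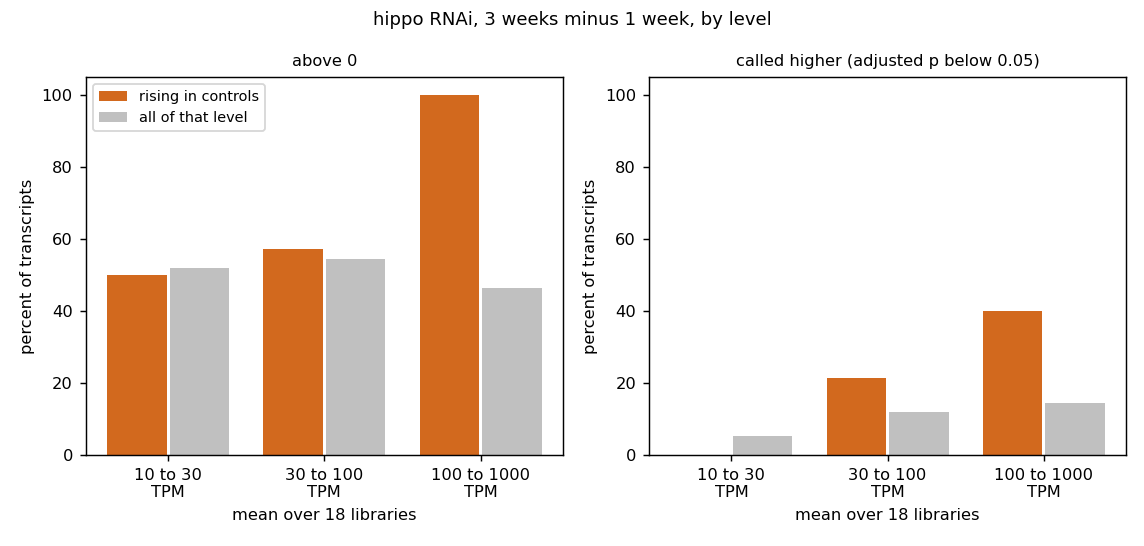
Bars give, by mean abundance, the percent of transcripts with a *hippo (RNAi)* mean higher at 3 weeks than at 1 week (left) and the percent called higher by limma (right), for the 52 transcripts that rose in controls and for all transcripts of that abundance. At 100 to 1000 TPM all 10 of the 52 were higher and 4 were called, against 46.6% and 14.5% of all, while at 10 to 30 TPM none of 28 was called.

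The sums of TPM were also taken apart for the 4 most abundant of the 52, of which a pair belongs to 1 assembly number, and for the other 48. The 4 together had 1645 ± 117 TPM (SD, n = 3) in controls of 1 week, 2045 ± 39.3 at 3 weeks and 2099 ± 148 at 4 weeks. In *hippo (RNAi)* they had 1795 ± 126, 2554 ± 158 and 2514 ± 123 TPM. The *hippo (RNAi)* sums of these 4 at 3 and 4 weeks were thus above those of the controls. The other 48 together had 1758 ± 34.8, 2208 ± 31.4 and 2280 ± 42.9 TPM in controls, and 1834 ± 97.5, 2049 ± 11.4 and 2005 ± 29.6 TPM in *hippo (RNAi)*. For these 48, the *hippo (RNAi)* sums of 3 and 4 weeks were above that of 1 week and below those of the controls of 3 and 4 weeks.

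The largest rise that passed the test was that of dd_Smed_v6_793_0_1. It had 431, 382 and 361 TPM in the controls of 1 week (249O, 250O and 251O), 441, 448 and 472 TPM at 3 weeks (257O, 258O and 259O) and 526, 453 and 478 TPM at 4 weeks (261O, 262O and 263O). In *hippo (RNAi)* it had 429, 340 and 382 TPM at 1 week (252O, 253O and 254O), 709, 605 and 829 TPM at 3 weeks (260O, 266O and 267O) and 592, 474 and 540 TPM at 4 weeks (264O, 268O and 269O). The *hippo (RNAi)* libraries of 3 weeks were above all other libraries of this transcript, and those of 4 weeks overlapped the controls of 4 weeks. Its mean in *hippo (RNAi)* was 384 ± 44.4 TPM at 1 week and 714 ± 112 TPM at 3 weeks (SD, n = 3), a ratio of 1.86. The log2 difference was 0.89 with a standard error of 0.13 (limma, adjusted p = 0.00587), against 0.22 in controls, and at 4 weeks the difference from 1 week was 0.48. Without libraries 266O to 269O the difference was also 0.89, with an adjusted p of 0.226 in a fit that called no transcript higher.

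The next was dd_Smed_v6_297_0_1. It had 54.5, 56.0 and 55.6 TPM in the controls of 1 week, 61.2, 73.5 and 62.3 TPM at 3 weeks and 67.2, 69.8 and 63.7 TPM at 4 weeks, in the same order of libraries. In *hippo (RNAi)* it had 61.4, 50.8 and 59.0 TPM at 1 week, 93.3, 107.8 and 89.6 TPM at 3 weeks and 104.8, 99.6 and 93.4 TPM at 4 weeks. All 6 later *hippo (RNAi)* libraries were above every other library. Its mean in *hippo (RNAi)* went from 57.1 ± 5.57 TPM at 1 week to 96.9 ± 9.66 TPM at 3 weeks (SD, n = 3), a ratio of 1.70, and the log2 difference was 0.75 with a standard error of 0.09 (limma, adjusted p = 0.00244). In controls that difference was 0.24. This transcript is also the one nearest to the upper limit of the rule, with a *hippo (RNAi)* mean 0.56 above the control at 4 weeks. Without libraries 266O to 269O its log2 difference was 0.70, with an adjusted p of 0.229 in that fit.

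**Figure D3:**
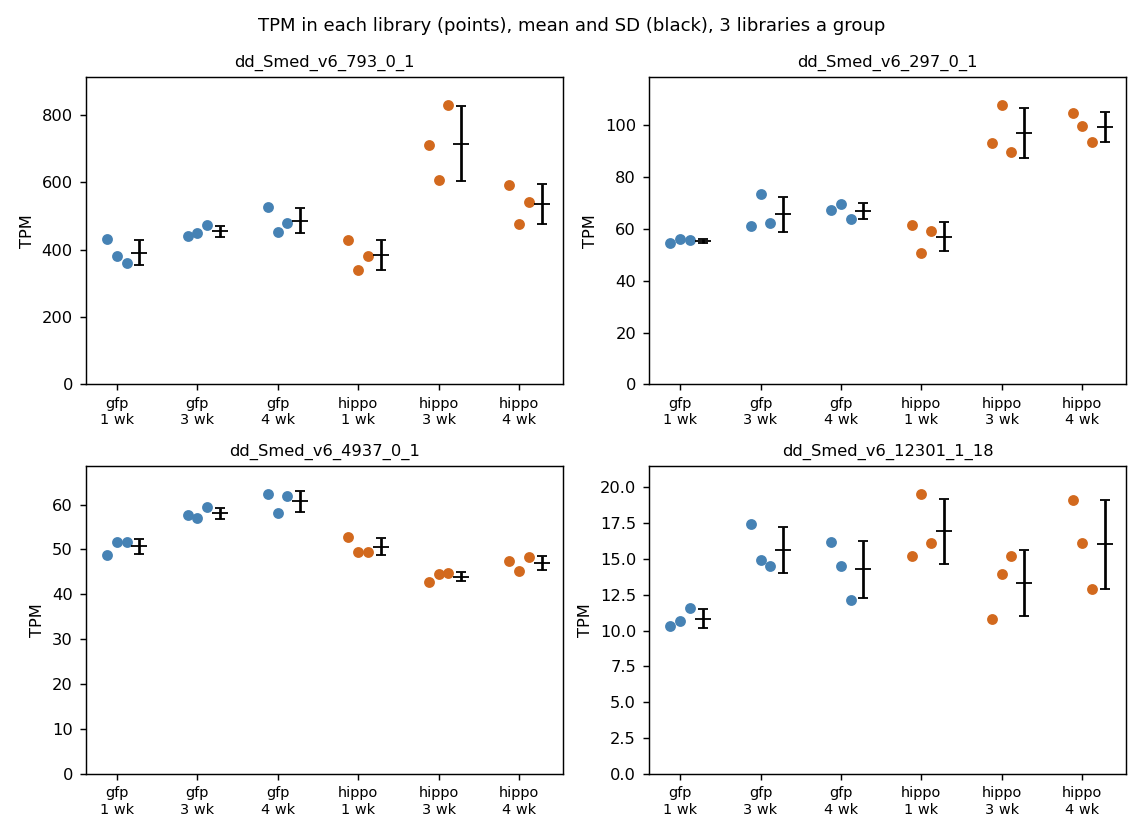
TPM of the 4 named transcripts in each of the 18 libraries (points), with the mean and SD of the 3 libraries of a group in black. The later *hippo (RNAi)* libraries of dd_Smed_v6_297_0_1 lie between 89.6 and 107.8 TPM, above all other libraries, and those of dd_Smed_v6_4937_0_1 lie between 42.7 and 48.2 TPM, below all other libraries.

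The other 5 transcripts that rose differed in how they stood to the controls. A transcript of 525 TPM on average had 445, 439 and 455 TPM in *hippo (RNAi)* at 1 week and 677, 597 and 721 TPM at 3 weeks, a log2 difference of 0.57 ± 0.07 (SE, limma adjusted p = 0.00241). Its 3 controls of 3 weeks, at 522, 497 and 510 TPM, lay between these groups. A transcript of 38.6 TPM on average had 32.0, 28.9 and 35.2 TPM at 1 week and 48.5, 53.1 and 47.3 TPM at 3 weeks in *hippo (RNAi)*, and its control libraries of 3 weeks did not exceed 38.4 TPM. One of 49.9 TPM had 41.6, 42.3 and 44.5 TPM at 1 week and 56.7, 57.7 and 56.3 TPM at 3 weeks, against 47.3 to 48.9 TPM in controls of 3 weeks. In these 3 transcripts, as in both named ones, the *hippo (RNAi)* libraries of 3 weeks were above the controls of 3 weeks.

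In the remaining 2 of the 7, the difference between 3 weeks and 1 week was smaller in *hippo (RNAi)* than in the controls. A transcript of 147 TPM on average had 127, 121 and 125 TPM at 1 week and 147, 147 and 149 TPM at 3 weeks in *hippo (RNAi)*, a log2 difference of 0.24 ± 0.03 (SE, limma adjusted p = 0.00286). Its controls went from 118, 129 and 120 TPM to 167, 163 and 165 TPM, above all the *hippo (RNAi)* libraries. The last, the most abundant of the 52 at 547 TPM, had 469, 452 and 541 TPM at 1 week and 577, 592 and 588 TPM at 3 weeks, a log2 difference of 0.27 ± 0.06 (SE, limma adjusted p = 0.0491). Its controls of 3 weeks had 568, 537 and 526 TPM, all below the *hippo (RNAi)* libraries of 3 weeks. It is 1 of 4 transcripts of its assembly number, another of which is also among the 52, and reads may be divided between them.

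**Figure D4:**
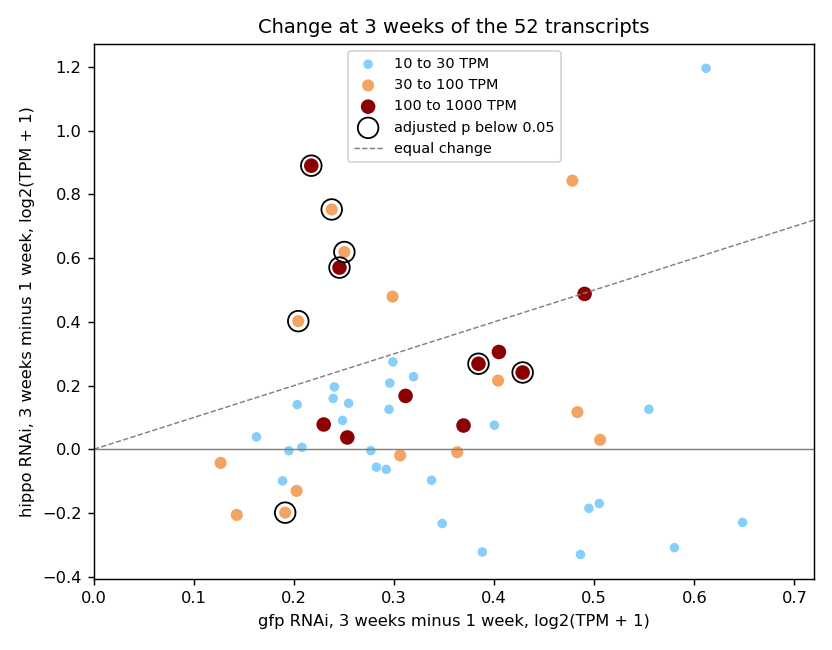
Each point is 1 of the 52 transcripts, with its log2(TPM + 1) difference between 3 weeks and 1 week in controls on the x axis and in *hippo (RNAi)* on the y axis, coloured by mean TPM. Rings mark an adjusted p below 0.05 in *hippo (RNAi)*, and the points of 100 to 1000 TPM all lie above 0 while those of 10 to 30 TPM are spread to both sides of it.

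The only transcript of the 52 that fell at 3 weeks was dd_Smed_v6_4937_0_1. It had 48.8, 51.6 and 51.7 TPM in the controls of 1 week, 57.7, 57.1 and 59.4 TPM at 3 weeks and 62.3, 58.1 and 61.9 TPM at 4 weeks. In *hippo (RNAi)* it had 52.8, 49.5 and 49.5 TPM at 1 week, 42.7, 44.4 and 44.7 TPM at 3 weeks and 47.4, 45.2 and 48.2 TPM at 4 weeks. The treatments overlapped at 1 week, after which all 6 controls were above and all 6 *hippo (RNAi)* libraries were below their own libraries of 1 week. The log2 difference in *hippo (RNAi)* was -0.20 with a standard error of 0.04 (limma, adjusted p = 0.0203), against 0.19 in controls. With 1 library fewer the difference stayed near this size while the adjusted p passed 0.05 in 3 cases, at -0.17 (adjusted p = 0.0533) without 252O, -0.21 (0.0543) without 266O and -0.18 (0.0867) without 260O.

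The same opposite course, with all 6 later *hippo (RNAi)* libraries below those of 1 week, was seen in 3 of the 52 (5.77%), against 10.5% of the range. The second, of 44.6 TPM on average, had 46.2, 46.2 and 43.5 TPM at 1 week, 35.3, 41.2 and 41.1 TPM at 3 weeks and 41.4, 38.6 and 41.6 TPM at 4 weeks in *hippo (RNAi)*, and did not pass the test at 3 weeks (log2 difference -0.21 ± 0.06 SE, limma adjusted p = 0.107). The third, of 10.3 TPM, had 14.1, 11.2 and 11.1 TPM at 1 week, 10.8, 9.8 and 8.2 TPM at 3 weeks and 9.6, 7.9 and 7.1 TPM at 4 weeks. Its *hippo (RNAi)* libraries of 1 week were all above its controls of 1 week, at 6.9, 8.7 and 8.2 TPM.

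Under the naming rule the place of a second fall was filled by the lowest difference, that of dd_Smed_v6_12301_1_18, which did not pass the test. It had 10.3, 10.6 and 11.6 TPM in controls of 1 week, 17.4, 14.9 and 14.5 TPM at 3 weeks and 16.2, 14.5 and 12.2 TPM at 4 weeks. In *hippo (RNAi)* it had 15.2, 19.5 and 16.1 TPM at 1 week, 10.8, 13.9 and 15.2 TPM at 3 weeks and 19.1, 16.1 and 12.9 TPM at 4 weeks. The *hippo (RNAi)* libraries of 1 week were above the controls of 1 week, and the *hippo (RNAi)* groups of 1 and 3 weeks overlapped. The log2 difference at 3 weeks was -0.33 with a standard error of 0.16 (limma, adjusted p = 0.326). It is 1 of 12 transcripts of its number, and the sum of the 12 in controls was 0.02 lower, not higher, at 4 weeks (log2 difference -0.02).

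At 1 week the *hippo (RNAi)* libraries are set beside the controls that the rule chose to be low. The 3 *hippo (RNAi)* libraries of 1 week lay above the 3 controls of 1 week in 11 of the 52, where the background was 12.3% of the range, and below them in 2. Since the rule used those controls, this count and the values that follow are a description from which nothing is read. The log2 difference between treatments at 1 week was 0.25 or more in 10 of the 52, 8 of which had a mean under 30 TPM, and it was -0.25 or less in 0. It was 0.5 or more in 6, all with means of 22.2 TPM or less. The widest was in a transcript of 12.8 TPM on average, with 8.6, 10.2 and 8.4 TPM in controls and 12.7, 17.6 and 17.2 TPM in *hippo (RNAi)* at 1 week. Its controls of 4 weeks, at 15.1, 12.7 and 11.7 TPM, overlapped the *hippo (RNAi)* libraries of 1 week.

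At 3 weeks the *hippo (RNAi)* libraries were all below the controls of 3 weeks in 21 of the 52 and all above them in 10, with 19.0% of the range below and 31.0% above. The median difference between treatments was 0.06 at 1 week, -0.13 at 3 weeks and -0.17 at 4 weeks, while over the range it was 0.02, 0.03 and 0.05. The controls in this comparison were those used by the rule, and the values are a description.

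Large differences in single scarce transcripts came with a large spread. The highest of the 52 at 3 weeks, 1.20 with a standard error of 0.31, belonged to a transcript of 12.0 TPM on average and was not called (limma, adjusted p = 0.0638). It had 15.6, 5.3 and 6.0 TPM at 1 week and 20.4, 20.5 and 18.3 TPM at 3 weeks in *hippo (RNAi)*, and library 252O stood apart from the other libraries of 1 week. In a transcript of 58.0 TPM, 252O was likewise high, with 70.2 TPM against 26.3 and 38.0 TPM in 253O and 254O, and 74.8, 80.2 and 70.1 TPM at 3 weeks. Within groups, the median SD of the 52 on the log2(TPM + 1) scale was 0.12 in *hippo (RNAi)* and 0.10 in controls, against 0.0667 and 0.0649 over the range. The standard errors of the difference at 3 weeks had a median of 0.09 and ran from 0.03 to 0.31.

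Between 3 and 4 weeks the transcripts moved both ways in *hippo (RNAi)*, with a median difference of 0.01 and a range of -0.42 to 0.64. Limma called 0 of the 52 in either direction, with 7 higher and 4 lower at an unadjusted p below 0.05, against 6.04% and 5.20% of the range. Over all tested transcripts that comparison called 0.0104% higher and 0% lower. Against 1 week, 9 of the 52 were called higher and 2 lower at 4 weeks, and 6 were called higher at both times. Since the rule bounded the *hippo (RNAi)* libraries of 4 weeks, these counts are a description. For the 60 transcripts with none left out for that difference the bound does not apply, and 10 rose and 4 fell, against 13.3% called higher and 7.63% called lower over the range, and 5.91% and 3.98% over all tested transcripts.

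Among the 8 left out for their difference at 4 weeks were larger movements in *hippo (RNAi)*. One of 309 TPM on average had 250, 200 and 263 TPM at 1 week, 349, 372 and 346 TPM at 3 weeks and 474, 414 and 483 TPM at 4 weeks, a log2 difference of 0.59 at 3 weeks (limma, adjusted p = 0.0115). Its controls of 3 and 4 weeks ran from 281 to 305 TPM. One of 112 TPM had 114.5, 83.5 and 110.0 TPM at 1 week and 57.1, 56.9 and 58.6 TPM at 3 weeks, a log2 difference of -0.81 (limma, adjusted p = 0.00880), while its controls of 3 weeks had 144, 154 and 151 TPM. One of 203 TPM fell as well, by 0.62 on the log2 scale (limma, adjusted p = 0.0230). Leaving these out narrows the span of the 52, which is a property of the rule.

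The size of the rise in controls, which the rule used, is set beside the *hippo (RNAi)* values as a description. Across the 52, the control difference at 4 weeks and the *hippo (RNAi)* difference at 3 weeks, both against 1 week, had a Pearson's r of -0.01 and a Spearman's rho of 0.00, a description over transcripts that share their libraries. The 8 transcripts with a control rise of 0.5 or more had a median of 0.17 in *hippo (RNAi)* and 1 of them rose (12.5%). The 44 with a smaller rise had a median of 0.06 and 6 of them rose (13.6%). Over the range 8.34% were called higher. The whole rise rule, applied to the *hippo (RNAi)* libraries alone, was met by 769 transcripts, 7.30% of the range. It was met by 8 of the 52 (15.4%), and by 9 of the 60 before the limit at 4 weeks, which is 15% of the control list and 1.17% of the *hippo (RNAi)* list.

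The rule turned round took 140 transcripts that fell in controls before the limit at 4 weeks, and 85 with it. That limit can bear on the course in *hippo (RNAi)*, which is given here for the 85 alone. Their median difference between 3 weeks and 1 week was -0.07, with 18 called lower (21.2%), 4 called higher (4.71%) and 63 not called, against 4.46% lower and 8.34% higher over the range. The 3 libraries of 3 weeks lay below the 3 of 1 week in 28 of them (32.9%), against 15.0% of the range. Whether the rising and the falling transcripts differ in how far *hippo (RNAi)* animals followed the controls was not tested.

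The identity of the transcripts as separate units was uncertain for a large share of them. Of the 52, 32 (61.5%) are the only transcript of their assembly number, against 73.0% of the range, and 20 come from 18 numbers with several transcripts, between which reads can be divided. For these 18 numbers, the summed TPM was higher by 0.25 or more in controls of 4 weeks in 6 and met the whole rule in 3, and the change of the sum ran from -0.04 to 0.74 with a median of 0.18. Of the 38 other transcripts of these numbers with at least 1 TPM, 18 were higher in controls at 4 weeks than at 1 week. Of the 32 alone in their number, 22 (68.8%) were higher in *hippo (RNAi)* at 3 weeks with a median of 0.10. Of all transcripts of the range alone in their number, 54.1% were higher. The 32 include 6 of the 7 that rose (18.8% of the 32) and the 1 that fell (3.1%). Over all alone in their number, 9.25% were called higher and 4.78% lower. Of the other 20, 10 were higher and 1 rose, against 47.0% and 5.86% of all transcripts from numbers with several.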

How the data were processed

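The table holds 18 libraries of *hippo (RNAi)* and *gfp (RNAi)* planarians at 1, 3 and 4 weeks, and groups were taken from the sample labels. The authors estimated transcript abundance with kallisto 0.43.0 on the dd_Smed_v6 assembly and deposited it as TPM. Depth is not known from TPM, so no counting error can be given, and TPM are relative, so a rise of abundant transcripts lowers the others. Read trimming and any filter on reads are not given in the sources used. Nothing says how the replicates were raised, so p-values measure the spread between pools. The transcripts and groups of transcripts were chosen with earlier results of these data known.

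The rule was applied to the deposited TPM. For the test, log2(TPM + 1) of the 28735 transcripts averaging 1 TPM or more was fitted with limma 3.58.1 in R 4.3.3 (trend in the variance, 1 mean per week) in the 9 *hippo (RNAi)* libraries alone, since the rule selects controls that do not overlap, and p-values were adjusted by Benjamini-Hochberg over all of them at 0.05. The pseudocount of 1 makes fold changes of scarce transcripts too small. Up to 2 transcripts that rose and 2 that fell were named, being those with the largest difference at 3 weeks among those called with all 6 later libraries on that side, and unfilled places went to the most extreme difference. The others are given without identifier. On simulated data for this comparison, 200 of 28735 transcripts were changed, all of them from those of 10 to below 1000 TPM. The shares called were 38.8% of the changes of 0.25, 76.1% of those of 0.5 and 98.5% of those of 1. Of the calls, 5.96% were false. The median within-group SD in *hippo (RNAi)* was 0.12 in the 52 and 0.0667 over that range. The shares called may therefore be too high for the 52. The alternatives were other pseudocounts, filters, scaling, fits, thresholds and rules, summed TPM, and leaving out libraries. Figures were drawn with matplotlib 3.10.9.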

Additional observations from a re-analysis of the deposited data

Results flagged for a closer look

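In 3 of the 52 transcripts all 6 control libraries of 3 and 4 weeks lay above, and all 6 *hippo (RNAi)* libraries of these weeks below, those of 1 week in the same treatment. For dd_Smed_v6_4937_0_1 the *hippo (RNAi)* log2 difference at 3 weeks was -0.20. All 6 later *hippo (RNAi)* libraries lay below those of 1 week in 10.5% of all transcripts of 10 to below 1000 TPM and in 5.77% of the 52. The choice of the transcripts fixed the direction in the controls, and the difference between the treatments was not tested.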

How the results depend on the processing

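No paired analysis was possible because no replicate number is given in the labels, which hold only a number for each library. Leaving out 1 library at a time gave 46 to 137 transcripts. Of these, 5 to 12 were higher and 0 to 7 lower in *hippo (RNAi)* at 3 weeks. Over all tested transcripts, 1.89% to 3.69% were called higher at 3 weeks. At 4 weeks against 1 week, 7 to 12 of those chosen were higher and 0 to 5 lower. The median difference at 3 weeks was -0.025 to 0.11 (-0.0019 without 251O). The call of dd_Smed_v6_4937_0_1 was lost in 3 of the fits with 1 library left out, at -0.21 to -0.17. Without libraries 266O to 269O all 4 counts at 3 and 4 weeks were 0, but this limma fit has 1 library at each of these times and called 0% of all tested higher at 3 weeks, so the counts do not bear on the 52. In that fit the log2 difference of dd_Smed_v6_4937_0_1 in *hippo (RNAi)* at 3 weeks against 1 week was -0.24. A fit of all 18 libraries called 12 higher and 2 lower at 3 weeks, where 4.98% of all tested were called higher. At 4 weeks it called 11 higher and 1 lower. The spread in that fit draws on controls that the rule chose not to overlap, and can be too small for the 52. Nothing is read from its counts. At a log2 difference of at least 0.58 the counts were 3 and 0 at 3 weeks, where 0.564% of all tested were called higher. At 4 weeks they were 2 and 0. An adjusted p below 0.01 left 6 higher and 0 lower at 3 weeks, where 1.57% of all tested were called higher. At 4 weeks it left 8 higher and 0 lower. Taking only control rises of at least 0.5 left 8 transcripts, with 1 and 0 called at 3 weeks and 2 and 0 at 4 weeks. With none left out for the difference at 4 weeks, 3 were lower at 3 weeks and 4 at 4 weeks. A pseudocount of 5 gave 0 lower at 3 weeks. A filter at 10 TPM gave 10 higher and 2 lower at 3 weeks, where 11.6% of all tested were called higher. At 4 weeks it gave 12 higher and 2 lower. No filter gave 6 higher and 1 lower at 3 weeks, where 2.37% of all tested were called higher. At 4 weeks it gave 9 higher and 0 lower. Median-ratio scaling and array weights each gave 1 lower at 4 weeks. The cause of these differences was not tested. The number of transcripts chosen was 40 to 58 under other pseudocounts and scaling, and 36 with TPM summed by assembly number.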
